A study of Mus musculus with 13 samples.

Results

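Nqo1, Gclc, Gclm, Srxn1, Txnrd1, Osgin1, Ugdh, Ephx1, Aox1 and Hmox1 are 10 genes that the transcription factor NRF2 is known to activate, apart from the glutathione S-transferases. Each gene was read from the probe set with the highest mean level among those annotated to its symbol alone. They were 10 of the 19938 genes measured on 13 Affymetrix arrays of mouse liver, and all 10 were among the 14953 genes bright enough to be tested. The mice were 14 days old, and the DEN groups received diethylnitrosamine (DEN, 20 mg/kg, intraperitoneally) 24 h before the livers were taken. Where present, Cre recombinase was under the control of the albumin promoter, whose activity is that of hepatocytes. Floxed Rb1 carries loxP sites around exon 19 of the gene. The N750F DEN group had 5 arrays, and its description names the mutant without its other allele or Cre. The knockout DEN group had 2 arrays of mice with floxed Rb1 and Cre. The heterozygous DEN group had 2 arrays of mice with 1 functional allele, 1 floxed allele and Cre, although another label of these 2 arrays reads LOH. The WT DEN group had 2 arrays of mice with floxed Rb1 and no Cre. The WT untreated group had 2 arrays of mice with floxed Rb1 and no Cre, which received saline. Heterozygous and knockout mice thus differed from WT mice also in the presence of Cre. Untreated mice were of WT alone, so genotype and DEN change together wherever another genotype is set against them.

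NRF2, encoded by Nfe2l2, is kept low by KEAP1, which marks it for degradation until electrophiles or oxidants modify cysteines of KEAP1. NRF2 then pairs with small MAF proteins and binds antioxidant response elements near its target genes. In liver these targets make glutathione, reduce quinones and oxidised thiols, and prepare foreign chemicals for excretion. DEN is a carcinogen that cytochromes P450 of hepatocytes convert into an alkylating agent. Rb1 encodes the retinoblastoma protein, which restrains E2F transcription factors, and N750F alters the site where partners with an LXCXE motif bind it.

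The arrays were run in 2 batches, with 9 arrays in batch 1 and 4 in batch 2. Batch 1 held both untreated and both knockout arrays, N750F arrays 1 to 3, heterozygous array 3 and WT DEN array 3. Levels are log2 of the quantile-normalized intensity plus 16, and differences come from a limma model of group and batch, so they are not plain differences of the group means. Xist and Y-linked genes marked the N750F mice as 1 male (array 1) and 4 females, the knockout and heterozygous mice as males, the WT DEN mice as females, and the untreated mice as 1 male and 1 female. Heterozygous array 4 had an intermediate Xist level of 8.05 beside a Y-linked mean of 9.34. Rb1 was at 7.82 to 8.43 over the N750F arrays, at 7.92 and 6.57 on the arrays labelled knockout, at 7.92 and 7.62 on the heterozygous arrays, at 8.04 and 8.01 on the WT DEN arrays and at 7.27 and 7.15 on the untreated arrays. The position of its probe set relative to exon 19 was not known here, so it does not check the labels. The mean of 10 hepatocyte markers lay between 11.54 and 11.88 on every array. Knockout array 2 also carried skeletal muscle transcripts, with a marker mean of 8.57 against 5.78 to 6.02 on the other arrays. The labels do not give the litter of each mouse, so the p-values speak only of the spread among these samples, and with so few arrays every value is imprecise.

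RefSeq promoter windows of GRCm38.p6 were at hand for 8 of the 10 genes, and Gclc and Hmox1 are named only. Both strands of the 250 bases upstream of the annotated start were searched for 2 forms of the antioxidant response element, the core TGACNNNGC and the form TGANTCAGC, which overlap where the N of the second is a C. The core was found in 10.2% of all 32851 windows and the second form in 1.02%. Among these genes the core lay upstream of Gclm, Ugdh and 1 of 3 windows of Txnrd1, and the second form upstream of Srxn1 and Osgin1. The windows of Srxn1 and Osgin1 are shown because both hold the same second form on opposite strands and the 2 genes differed from untreated liver in opposite directions after DEN (though not in most comparisons among DEN-treated genotypes), that of Ugdh because it holds 2 core matches, and that of Nqo1 because it holds neither. Capitals mark the matches, and each window reads 5′ to 3′ on the strand of its gene.
Srxn1: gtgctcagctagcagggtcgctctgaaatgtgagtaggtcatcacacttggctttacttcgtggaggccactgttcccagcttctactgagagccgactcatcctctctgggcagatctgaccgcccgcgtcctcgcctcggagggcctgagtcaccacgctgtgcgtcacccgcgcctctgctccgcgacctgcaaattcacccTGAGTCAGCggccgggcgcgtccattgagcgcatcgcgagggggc
Osgin1: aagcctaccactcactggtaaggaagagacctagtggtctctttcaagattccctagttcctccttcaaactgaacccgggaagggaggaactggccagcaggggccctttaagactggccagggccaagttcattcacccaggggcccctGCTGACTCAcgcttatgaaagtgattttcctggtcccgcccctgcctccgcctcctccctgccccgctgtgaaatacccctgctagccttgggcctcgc
Ugdh: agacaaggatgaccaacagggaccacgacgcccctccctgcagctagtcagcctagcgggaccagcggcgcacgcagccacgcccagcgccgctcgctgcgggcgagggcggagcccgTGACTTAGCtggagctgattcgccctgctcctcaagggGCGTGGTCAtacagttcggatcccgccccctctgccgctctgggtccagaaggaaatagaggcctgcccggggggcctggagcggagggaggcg
Nqo1: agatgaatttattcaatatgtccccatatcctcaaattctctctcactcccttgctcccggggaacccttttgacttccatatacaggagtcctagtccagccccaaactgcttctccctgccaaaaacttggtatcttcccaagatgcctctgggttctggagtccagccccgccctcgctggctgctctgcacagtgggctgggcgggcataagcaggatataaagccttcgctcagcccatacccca
The Srxn1 window is chr2:152105274-152105523 on the plus strand, and its match lies 45 to 37 bases upstream of the start. The Osgin1 window is chr8:119436897-119437146 on the plus strand, and its match lies 99 to 91 bases upstream, on the opposite strand to the gene. The Ugdh window is chr5:65435843-65436092 on the minus strand, with matches 132 to 124 bases upstream and, on the opposite strand, 94 to 86 bases upstream. The Nqo1 window is chr8:107403206-107403455 on the minus strand. A match describes these letters and is not a measured binding site, and elements farther from the start were not searched.

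In WT liver after DEN, the enzymes that act on epoxides, quinones and aldehydes and that supply glucuronic acid were higher than in untreated liver, Osgin1 was lower, and the genes of glutathione synthesis gave no call. In this comparison 4 of the 10 genes rose (Nqo1, Ugdh, Ephx1 and Aox1) and 1 fell (Osgin1) at an adjusted p under 0.05, against 0.301% of all tested genes called higher and 0.388% called lower (0.689% in all). Heterozygous DEN liver had 5 genes called higher (Nqo1, Srxn1, Ugdh, Ephx1 and Aox1) and none lower, against 0.675% of all genes called higher and 1.4% called in either direction. N750F DEN liver had 3 called higher (Nqo1, Srxn1 and Ephx1) and Osgin1 called lower, against 3.87% of all genes higher, 2.34% lower and 6.21% in all. In knockout DEN liver Ephx1 alone was called, against 0.0803% of all genes called higher and 0.0869% in all. The 5 N750F arrays give this comparison more precision than the others, so the counts of the 4 comparisons do not rank the genotypes. All 4 comparisons share the same 2 untreated arrays, and their values are given side by side. The median difference of the 10 genes was 0.72 for N750F, 0.65 for knockout, 1.92 for heterozygous and 1.1 for WT liver after DEN, while medians over all tested genes lay between -0.06 and -0.02. Counted by levels alone, 4 of the 10 genes lay on every N750F array above both untreated arrays, against 10.9% of all genes. This count was 7 for the knockout arrays, against 18.5% of all genes, 6 for the heterozygous arrays, against 17.2%, and 6 for the WT DEN arrays, against 17.4%. Wholly below both untreated arrays lay 1 of the 10 genes for N750F, against 2164 of 14953 genes, and 1 for knockout, against 3211. The count was 1 for heterozygous, against 3973, and 2 for WT DEN, against 3515. The counts of calls were the same, at 4, 5 and 5 for N750F, heterozygous and WT, when both knockout arrays were left out of the model. Other settings, given at the end, lowered these counts. On batch 1 arrays alone no gene was called for heterozygous or WT.

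Mean levels of markers of cells other than hepatocytes moved with some of the same groups. The mean of 7 neutrophil markers was 5.62 to 6.34 on the N750F, 5.62 to 5.70 on the knockout, 5.37 to 5.53 on the heterozygous and 5.25 to 5.34 on the WT DEN arrays, against 6.01 to 6.27 on the untreated arrays. The mean of 6 erythroid markers was 6.07 to 6.46 on the N750F, 6.21 to 6.49 on the knockout, 5.98 to 6.11 on the heterozygous and 5.88 to 5.98 on the WT DEN arrays, against 6.65 to 6.72 on the untreated arrays. Neutrophil means were thus below both untreated arrays in every DEN group but N750F, and erythroid means in all 4. The mean of 6 stellate cell markers was 8.85 to 9.31 on the N750F, 9.03 to 9.17 on the knockout, 8.29 to 8.93 on the heterozygous, 8.27 to 8.73 on the WT DEN and 9.02 to 9.22 on the untreated arrays. The mean of 7 endothelial markers was 7.90 to 8.54 on the N750F, 7.88 to 8.08 on the knockout, 7.38 to 8.01 on the heterozygous, 7.57 to 8.05 on the WT DEN and 8.26 to 8.44 on the untreated arrays. Stellate means in heterozygous and WT DEN liver, and endothelial means in every DEN group but N750F, lay below both untreated arrays. The part of these markers in the differences of the 10 genes was not tested, and fewer cells of a type and less RNA per cell cannot be told apart in whole liver.

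**Figure D1:**
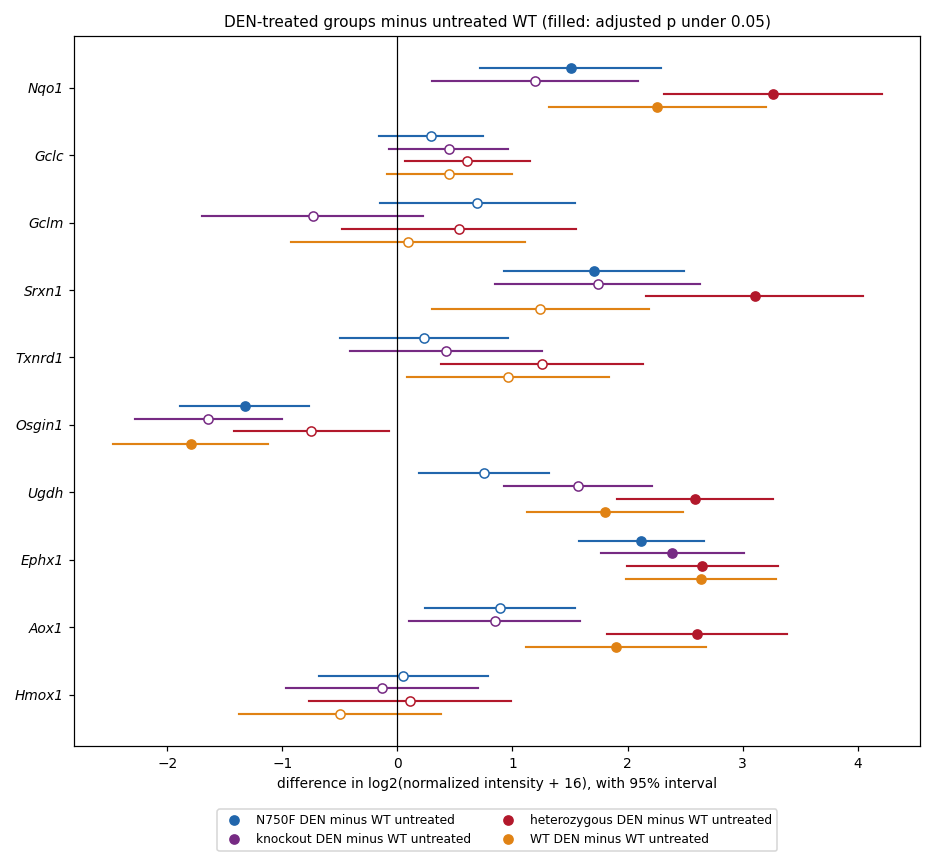
Difference of each DEN group from untreated WT liver for the 10 genes, in log2(normalized intensity + 16), with bars for the 95% interval of the limma model and filled points for an adjusted p under 0.05. Ephx1 is filled in all 4 comparisons, and Osgin1 lies left of 0 in all 4.

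Ephx1, microsomal epoxide hydrolase, which opens reactive epoxides to diols, was the only one of the 10 called in all 4 DEN groups. It was at 10.18, 10.67, 11.09, 9.73 and 10.08 on the N750F arrays, at 10.82 and 10.93 on the knockout arrays, at 11.08 and 10.55 on the heterozygous arrays, at 11.05 and 10.56 on the WT DEN arrays and at 8.62 and 8.34 on the untreated arrays. Every DEN array lay above both untreated arrays, and the 4 DEN groups overlapped one another. The difference from untreated liver was 2.12 ± 0.25 (SE, limma, adjusted p = 0.00164) for N750F, 2.39 ± 0.29 (adjusted p = 0.0051) for knockout, 2.65 ± 0.30 (adjusted p = 0.00151) for heterozygous and 2.64 ± 0.30 (adjusted p = 0.00428) for WT, the last being a 6.23-fold change. Heterozygous minus WT DEN was 0.01, with a 95% interval of -0.61 to 0.63. Without knockout array 2, which carried the muscle transcripts, the knockout difference was 2.33 (adjusted p = 0.0185), and without untreated array 2 it was 2.25 and its call was lost (adjusted p = 0.077). The calls of the other 3 groups held with any single array left out. Batch 2 held no untreated and no knockout array, and batch 1 arrays alone gave 2.16 (adjusted p = 0.02) for N750F, 2.39 (adjusted p = 0.0497) for knockout, 2.60 (adjusted p = 0.0573) for heterozygous and 2.56 (adjusted p = 0.0626) for WT.

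Nqo1, which reduces quinones by a single transfer of 2 electrons, was called in the N750F, heterozygous and WT groups. It was at 6.28, 7.41, 7.66, 5.61 and 6.39 on the N750F arrays, at 6.94 and 6.72 on the knockout arrays, at 9.17 and 7.46 on the heterozygous arrays, at 7.69 and 6.93 on the WT DEN arrays and at 5.36 and 5.91 on the untreated arrays. N750F array 4 lay between the untreated arrays, and every other DEN array lay above both. Both untreated arrays were below 5.94, the mean level under which genes were not tested, so the fold is compressed by the offset. Nqo1 was 3.26 ± 0.44 higher (SE, limma, adjusted p = 0.00389) in heterozygous, 2.26 ± 0.44 higher (adjusted p = 0.0364) in WT and 1.51 ± 0.37 higher (adjusted p = 0.0316) in N750F than in untreated liver. Knockout minus untreated was 1.19 ± 0.42 (adjusted p = 0.367). Leaving out 1 array ended the WT call for 8 of the 13 arrays, both untreated and both WT DEN arrays among them. It ended the N750F call for N750F arrays 2 and 3 and for both untreated arrays, and the heterozygous call for heterozygous array 3 (2.84, adjusted p = 0.0672). Batch 1 arrays alone gave 1.48 (adjusted p = 0.0661) for N750F, 3.53 (adjusted p = 0.0573) for heterozygous and 2.05 (adjusted p = 0.243) for WT.

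Aox1, aldehyde oxidase, which oxidises aldehydes and nitrogen heterocycles, was at 7.12, 7.89, 8.47, 7.60 and 7.61 on the N750F arrays and at 8.01 and 7.53 on the knockout arrays. It was at 9.50 and 9.37 on the heterozygous arrays, at 8.81 and 8.65 on the WT DEN arrays and at 7.02 and 6.82 on the untreated arrays. The groups formed 4 levels that did not overlap, with heterozygous above WT DEN, WT DEN above N750F and knockout, and these above untreated. The share of all genes with such levels was not counted. Limma called no step between neighbouring levels (heterozygous minus WT DEN, adjusted p = 0.721). Aox1 rose by 2.61 ± 0.36 (SE, limma, adjusted p = 0.00458) in heterozygous and by 1.90 ± 0.36 (adjusted p = 0.0364) in WT liver relative to untreated. N750F minus untreated was 0.89 ± 0.30 (adjusted p = 0.0974) and knockout minus untreated 0.85 ± 0.35 (adjusted p = 0.443), and the N750F difference was called without N750F array 1 (1.15, adjusted p = 0.034). The WT call was lost without any 1 of 8 arrays, both untreated and both WT DEN arrays among them, and the heterozygous call without heterozygous array 3 (2.65, adjusted p = 0.0529). Batch 1 arrays alone gave 2.58 (adjusted p = 0.0923) for heterozygous and 1.89 (adjusted p = 0.252) for WT.

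Ugdh, UDP-glucose dehydrogenase, makes the UDP-glucuronic acid that is joined to drugs and bilirubin. It was at 8.61, 8.20, 9.01, 9.19 and 8.87 on the N750F arrays, at 9.39 and 9.63 on the knockout arrays, at 10.48 and 10.78 on the heterozygous arrays, at 10.04 and 9.66 on the WT DEN arrays and at 7.99 and 7.88 on the untreated arrays. None of the 5 groups overlapped, in the order heterozygous, WT DEN, knockout, N750F and untreated from high to low. The share of all genes with such an order was not counted, and limma called no step between neighbouring groups. The adjusted p was 0.717 for heterozygous minus WT DEN and 0.28 for N750F minus knockout. WT DEN array 4 (9.66) lay just above knockout array 2 (9.63), and knockout minus WT DEN was -0.23 ± 0.32 (SE, limma, adjusted p = 0.872). That difference turned above 0 with the replicate number as a block (0.36) and without WT DEN array 3 (0.24). Ugdh rose by 2.59 ± 0.32 (SE, limma, adjusted p = 0.00171) in heterozygous and by 1.80 ± 0.32 (adjusted p = 0.0249) in WT liver relative to untreated. Knockout minus untreated was 1.57 ± 0.30 (adjusted p = 0.0697) and N750F minus untreated 0.75 ± 0.26 (adjusted p = 0.107). The heterozygous call held with any single array left out, and the WT call was lost without untreated array 1, untreated array 2 or WT DEN array 3. Batch 1 arrays alone gave 2.54 (adjusted p = 0.0573) for heterozygous and 2.10 (adjusted p = 0.0959) for WT.

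**Figure D2:**
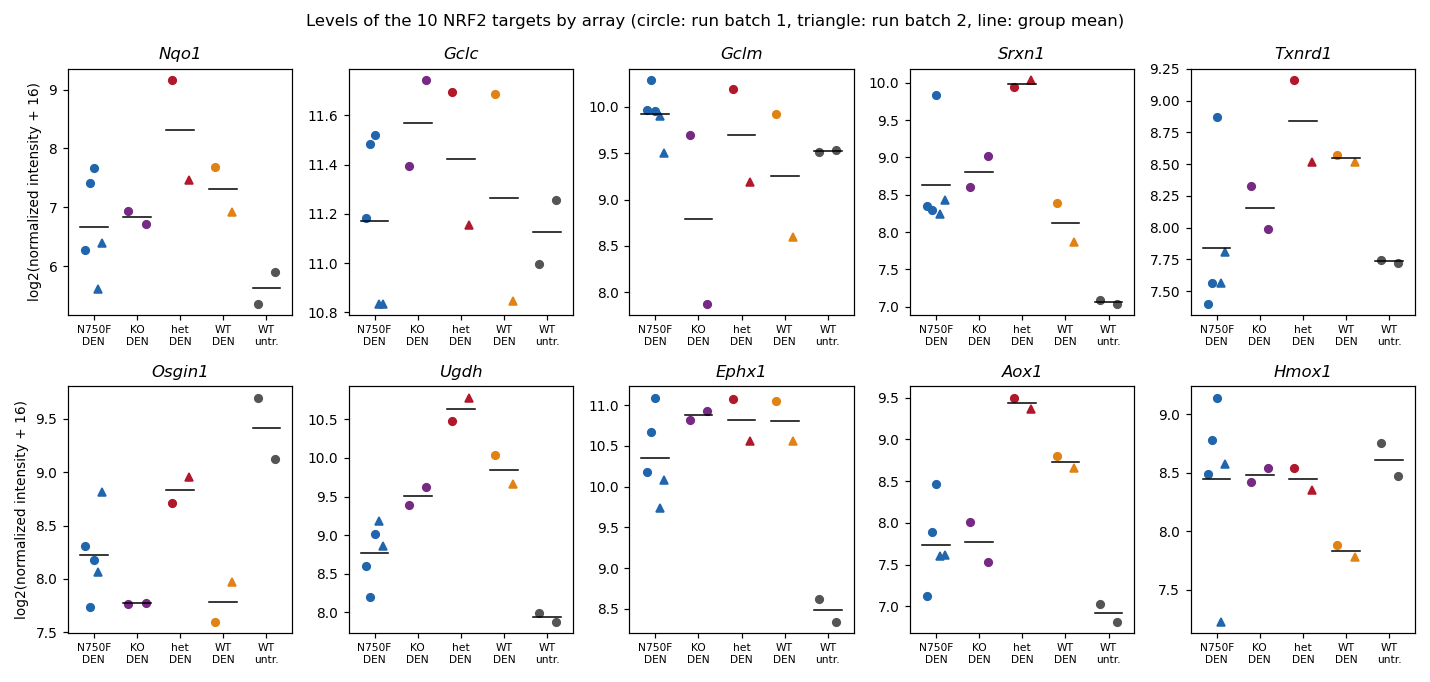
Level of each gene on each of the 13 arrays in log2(normalized intensity + 16), with N750F, knockout, heterozygous and WT DEN and WT untreated from left to right, circles for run batch 1, triangles for run batch 2 and a line for the group mean. Vertical axes differ between panels and do not start at 0. The 5 groups of Ugdh do not overlap, though WT DEN and knockout nearly touch (9.66 and 9.63). The groups of Gclm overlap, and so do those of Gclc, except that both knockout arrays lie above both untreated arrays.

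Srxn1, sulfiredoxin, which reactivates overoxidised peroxiredoxins, was at 8.35, 8.29, 9.84, 8.24 and 8.42 on the N750F arrays and at 8.60 and 9.01 on the knockout arrays. It was at 9.94 and 10.04 on the heterozygous arrays, at 8.39 and 7.86 on the WT DEN arrays and at 7.10 and 7.04 on the untreated arrays. Every DEN array lay above the untreated ones, and both heterozygous arrays lay above all others. Srxn1 rose by 3.10 ± 0.44 (SE, limma, adjusted p = 0.0046) in heterozygous and by 1.71 ± 0.37 (adjusted p = 0.0212) in N750F liver relative to untreated. Knockout minus untreated was 1.74 ± 0.42 (adjusted p = 0.166) and WT DEN minus untreated 1.24 ± 0.44 (adjusted p = 0.226), and the knockout difference was called when N750F array 3 was left out of the shared model (adjusted p = 0.0201). The N750F call was lost without either untreated array. It held without N750F array 3, which stood far above the other 4, at a difference of 1.31 (adjusted p = 0.0314). Batch 1 arrays alone gave 1.76 (adjusted p = 0.0612) for N750F and 2.87 (adjusted p = 0.114) for heterozygous.

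Txnrd1, cytosolic thioredoxin reductase, passed the test in none of the 10 comparisons. It was at 7.40, 7.56, 8.87, 7.57 and 7.81 on the N750F arrays, at 8.33 and 7.99 on the knockout arrays, at 9.16 and 8.52 on the heterozygous arrays, at 8.57 and 8.52 on the WT DEN arrays and at 7.74 and 7.73 on the untreated arrays. Knockout, heterozygous and WT DEN arrays all lay above the untreated ones, while 3 of 5 N750F arrays lay below them. The difference from untreated liver was 0.23 ± 0.34 (SE, limma, adjusted p = 0.759) for N750F and 1.26 ± 0.41 (adjusted p = 0.149) for heterozygous.

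Gclc and Gclm encode the catalytic and modifier subunits of glutamate-cysteine ligase, the first enzyme of glutathione synthesis, and neither passed the test in any comparison. Gclc spanned 10.84 to 11.52 over the N750F arrays and was at 11.40 and 11.75 on the knockout arrays, at 11.69 and 11.15 on the heterozygous arrays, at 11.69 and 10.85 on the WT DEN arrays and at 11.00 and 11.26 on the untreated arrays. WT DEN minus untreated was 0.45 for Gclc, with a 95% interval of -0.09 to 0.99. Gclm spanned 9.50 to 10.29 over the N750F arrays and was at 9.70 and 7.88 on the knockout arrays, at 10.19 and 9.19 on the heterozygous arrays, at 9.92 and 8.59 on the WT DEN arrays and at 9.51 and 9.54 on the untreated arrays. WT DEN minus untreated was 0.10 for Gclm, with a 95% interval of -0.92 to 1.11. The lowest Gclm level was on knockout array 2, which carried the muscle transcripts, and their part in it was not tested.

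Osgin1, an oxidative stress-induced growth inhibitor, went against the other called genes. It was at 8.31, 7.74, 8.18, 8.06 and 8.81 on the N750F arrays, at 7.77 and 7.78 on the knockout arrays, at 8.71 and 8.95 on the heterozygous arrays, at 7.60 and 7.97 on the WT DEN arrays and at 9.70 and 9.13 on the untreated arrays. Both untreated arrays lay above every DEN array, a pattern whose share over all genes was not counted. Osgin1 fell by 1.80 on the log2 scale (SE 0.31, limma, adjusted p = 0.0249) in WT liver and by 1.33 (SE 0.26, adjusted p = 0.0167) in N750F liver relative to untreated. Knockout minus untreated was -1.64 ± 0.30 (adjusted p = 0.0617) and heterozygous minus untreated -0.75 ± 0.31 (adjusted p = 0.267), and the knockout difference was called without N750F array 4 (adjusted p = 0.0497). The WT call was lost without untreated array 1 and without either WT DEN array, and the N750F call without untreated array 1 (-1.04, adjusted p = 0.263). Batch 1 arrays alone gave -1.34 (adjusted p = 0.0426) for N750F and -1.81 (adjusted p = 0.138) for WT.

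Hmox1, haem oxygenase 1, which splits haem and is also made by macrophages, passed the test in no comparison. It was at 8.49, 8.78, 9.14, 7.23 and 8.57 on the N750F arrays, at 8.42 and 8.54 on the knockout arrays, at 8.54 and 8.35 on the heterozygous arrays, at 7.89 and 7.78 on the WT DEN arrays and at 8.75 and 8.47 on the untreated arrays. Both WT DEN arrays lay below both untreated arrays, at a difference of -0.50 ± 0.41 (SE, limma, adjusted p = 0.655). The same order of levels was seen for 3515 of 14953 tested genes. Of 11 Kupffer cell and macrophage markers, 3 fell in the same comparison, Csf1r with a difference of -2.03, Cd5l with -1.72 and Lyz2 with -1.32, where 0.388% of all genes were called lower. The mean of the 11 markers was 7.53 to 8.03 on the N750F arrays, 7.42 to 7.83 on the knockout, 7.02 to 7.30 on the heterozygous, 6.80 to 6.87 on the WT DEN and 7.75 to 8.14 on the untreated arrays. Their part in the Hmox1 levels was not tested.

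Among the DEN-treated genotypes, N750F liver had lower Nqo1, Ugdh and Aox1 than heterozygous liver, and none of the 10 genes was called higher. These 3 calls of 10 stand against 0.334% of all tested genes called lower and 1.64% called in either direction. Ugdh was lower by 1.84 (-1.84 ± 0.25, SE, limma, adjusted p = 0.00184), Aox1 by 1.71 (-1.71 ± 0.29, adjusted p = 0.00757) and Nqo1 by 1.76 (-1.76 ± 0.35, adjusted p = 0.0201). Every N750F array lay below both heterozygous arrays for Ugdh, Aox1 and Srxn1, 3 genes against 5.59% of all genes, while for Nqo1 N750F array 3 (7.66) lay above heterozygous array 4 (7.46). Srxn1 missed the threshold at -1.40 ± 0.35 (adjusted p = 0.0662) and Txnrd1 at -1.03 ± 0.32 (adjusted p = 0.191). The median difference of the 10 genes was -0.80, against -0.01 over all genes.

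Within batch 1 the N750F minus heterozygous difference was -1.87 for Ugdh, -1.67 for Aox1 and -2.05 for Nqo1, and within batch 2 it was -1.75, -1.76 and -1.46 in the same order, with 0 calls in either batch alone. Without heterozygous array 4 none of the 10 genes was called, and without heterozygous array 3 Ugdh alone was called. Without N750F array 3 the same 3 genes were called with Srxn1 (-1.66, adjusted p = 0.0027) and Txnrd1 (-1.25, adjusted p = 0.0224). The mouse of N750F array 1 and both heterozygous mice were male, and the other 4 N750F mice were female. N750F array 1 had 8.61 for Ugdh, 7.12 for Aox1 and 6.28 for Nqo1, below both heterozygous arrays in each. That is 1 mouse, and its Aox1 level was the lowest of the 5 N750F arrays. In a fit that included the Y-linked mean as a covariate, the differences were -1.87 for Ugdh (adjusted p = 0.0472), -2.12 for Aox1 (adjusted p = 0.034) and -2.53 for Nqo1 (adjusted p = 0.0168). Only the N750F and untreated groups held both sexes, so this covariate rests mainly on them. The part of sex in these differences was not tested.

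Knockout liver had all 10 differences from heterozygous liver below 0, while 49.9% of all genes had a difference above 0. This comparison shares its 2 heterozygous arrays with N750F minus heterozygous and with heterozygous minus WT DEN, so these are not separate results. Several of the 10 genes also varied together over the arrays, so their signs are not 10 independent observations. The median of the 10 was -0.95, against -0.0005 over all genes. Limma called 0 of the 10, against 0.301% of all genes called. An unadjusted p under 0.05 was found for 6 of them, against 1439 of 14953 over all genes. Nqo1 differed by -2.07 ± 0.44 (SE, adjusted p = 0.0798), Aox1 by -1.76 ± 0.36 (adjusted p = 0.0682) and Srxn1 by -1.36 ± 0.44 (adjusted p = 0.297). Both knockout arrays lay below both heterozygous arrays for 6 genes, against 14.1% of all genes. Gclc, Ephx1 and Hmox1 turned above 0 without the batch term and on the arrays of these 2 groups alone. Txnrd1 and Ephx1 turned above 0 with the replicate number as a block, and Gclc without knockout array 1. Without N750F array 1 Nqo1 and Aox1 were called (adjusted p = 0.0316 each), and without knockout array 1, which leaves the array with the muscle transcripts, Gclm was called at -2.18 (adjusted p = 0.0251). Knockout and heterozygous mice were all male, and both groups carried Cre.

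Heterozygous liver had all 10 differences from WT DEN liver above 0, against 49% of all genes, on the same 2 heterozygous arrays. The median of the 10 was 0.66, against -0.008 over all genes. However, Ephx1 turned below 0 on batch 2 arrays alone and without WT DEN array 3 or heterozygous array 4, and Txnrd1 on batch 2 arrays alone. Limma called 0 of the 10, against 0.00669% of all genes called. An unadjusted p under 0.05 was found for 4 of them, against 1029 of 14953 over all genes. Srxn1 differed by 1.86 ± 0.42 (SE, adjusted p = 0.573), Osgin1 by 1.05 ± 0.30 (adjusted p = 0.665) and Nqo1 by 1.01 ± 0.42 (adjusted p = 0.717). Both heterozygous arrays lay above both WT DEN arrays for 5 genes, against 11.2% of all genes, and sex differed between these groups throughout.

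N750F liver had 0 of the 10 genes called against WT DEN liver, where 1.42% of all genes were called. Of the 10, 4 had an unadjusted p under 0.05, against 2193 of 14953 over all genes. The 5 N750F arrays lay below both WT DEN arrays for Ugdh and Aox1, 2 genes against 6.9% of all genes. Ugdh differed by -1.05 ± 0.25 (SE, limma, adjusted p = 0.0578) and Aox1 by -1.01 ± 0.29 (adjusted p = 0.119). Knockout minus WT DEN gave 0 calls, against 0.0468% of all genes, and 2 unadjusted p under 0.05, against 1278 of 14953 over all genes. Nqo1 was at -1.06 ± 0.44 (SE, limma, adjusted p = 0.525) and Aox1 at -1.06 ± 0.36 (adjusted p = 0.428). Both knockout mice were male and both WT DEN mice female, so sex and genotype cannot be told apart in this comparison. N750F minus knockout also gave 0 calls, where 0% of all genes were called, and 2 unadjusted p under 0.05, against 1823 of 14953 over all genes. Aox1 differed there by 0.05, with a 95% interval of -0.60 to 0.70, and Ugdh by -0.82 ± 0.26 (adjusted p = 0.28). Gclm differed by 1.43 ± 0.39 (adjusted p = 0.248), and without knockout array 1, which again leaves the array with the muscle transcripts, it was called at 2.34 (adjusted p = 0.00425).

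**Figure D3:**
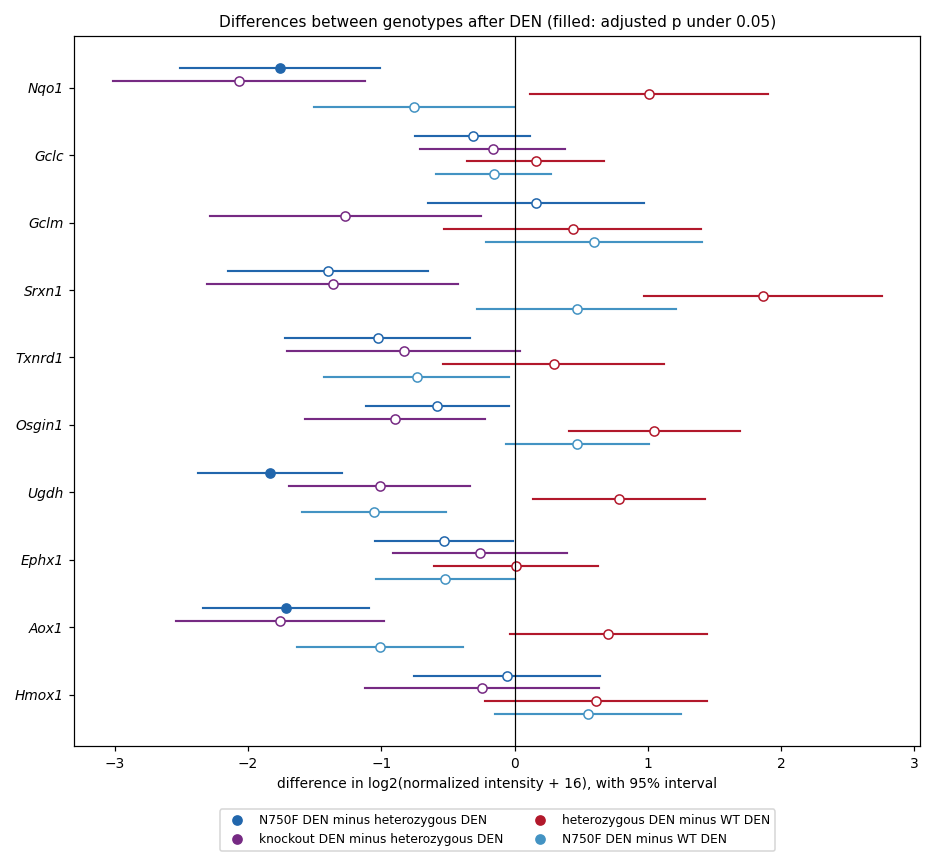
Differences between DEN-treated genotypes for the 10 genes in log2(normalized intensity + 16), with bars for the 95% interval of the limma model and filled points for an adjusted p under 0.05. N750F minus heterozygous is filled for Nqo1, Ugdh and Aox1, and no other comparison plotted has a filled point.

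Heterozygous liver had the highest group mean for 5 of the 10 genes (Nqo1, Srxn1, Txnrd1, Ugdh and Aox1), and was the highest group for 17.6% of all tested genes. Untreated liver was highest for Osgin1 and Hmox1, knockout for Gclc and Ephx1, and N750F for Gclm. WT DEN was the highest for none of the 10, and for 19.2% of all genes.

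Of 9 regulators of the pathway tested, Nfe2l2 was called higher in heterozygous liver (1.20 ± 0.25, SE, limma, adjusted p = 0.0361) and in N750F liver (0.81 ± 0.21, adjusted p = 0.0395) than in untreated liver. This is 1 of 9 in each, against 0.675% of all genes called higher for heterozygous and 3.87% for N750F. WT DEN minus untreated was 1.05 ± 0.25 (adjusted p = 0.0818) and knockout minus untreated 0.54 ± 0.24 (adjusted p = 0.495). Nfe2l2 was at 9.96 to 10.41 over the N750F arrays, at 9.92 and 10.20 on the knockout, at 10.75 and 10.28 on the heterozygous, at 10.60 and 10.13 on the WT DEN and at 9.75 and 9.28 on the untreated arrays, so every DEN array lay above both untreated arrays. Nfe2l2 gave no call between DEN-treated genotypes (N750F minus heterozygous -0.39, adjusted p = 0.503), and Keap1 gave none in any comparison. The median difference of the 9 regulators from untreated liver was 0.15 for heterozygous and -0.41 for N750F, against -0.04 and -0.06 over all genes. For N750F minus heterozygous it was -0.56, against -0.01 over all genes.

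Of 13 further NRF2 targets of drug handling 8 could be tested, and 4 of them fell in N750F relative to heterozygous liver, where 0.334% of all genes were called lower and 1.64% in all. These were Adh7, a retinol and alcohol dehydrogenase (-1.93 ± 0.31, SE, limma, adjusted p = 0.00509), Cbr1, a carbonyl reductase (-1.31 ± 0.30, adjusted p = 0.0446), Entpd5, a nucleoside diphosphatase of the endoplasmic reticulum (-1.02 ± 0.23, adjusted p = 0.0405), and Pir, pirin (-0.97 ± 0.22, adjusted p = 0.04). Adh7 was at 6.22 to 7.30 over the N750F arrays, at 7.22 and 6.76 on the knockout, at 9.12 and 8.45 on the heterozygous, at 8.61 and 8.21 on the WT DEN and at 6.24 and 6.86 on the untreated arrays. It rose by 2.33 in heterozygous (adjusted p = 0.0111) and by 1.96 in WT liver (adjusted p = 0.038) relative to untreated, and fell by 1.55 in N750F relative to WT DEN liver (adjusted p = 0.0246). Entpd5 rose by 1.85 in heterozygous relative to untreated liver (adjusted p = 0.00796). In these comparisons 1 or 2 of the 8 genes were called, against 0.675% of all genes called higher for heterozygous and 0.301% for WT minus untreated. For N750F minus WT DEN, 43 of 14953 genes were called lower and 1.42% in either direction. The list's median difference was -0.73 for N750F minus heterozygous, against -0.01 over all genes. It was -0.88 for knockout minus heterozygous, where none of the 8 was called.

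Of 12 genes of thiol and NADPH supply, among them Gsr, Txn1 and Me1, 8 could be tested and none was called in any of the 10 comparisons. Of 9 genes of haem and iron handling, all tested, Hp, the haemoglobin-binding haptoglobin, was called once, lower by 0.93 in N750F than in untreated liver (-0.93 ± 0.22, adjusted p = 0.0275), a comparison in which 2.34% of all genes were called lower and 6.21% in all.

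**Figure D4:**
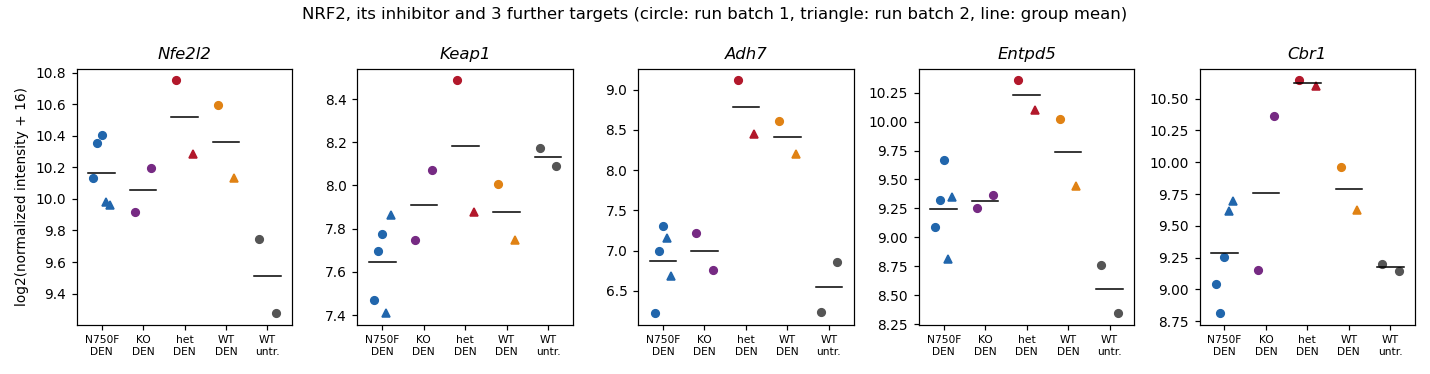
Level of Nfe2l2, Keap1 and 3 further NRF2 targets on each of the 13 arrays in log2(normalized intensity + 16), with groups from left to right as N750F, knockout, heterozygous and WT DEN and WT untreated, circles for run batch 1, triangles for run batch 2 and a line for the group mean. Vertical axes differ and do not start at 0. Adh7 is higher on all heterozygous and WT DEN arrays than on the N750F, knockout and untreated arrays.

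A set of 7 targets varied together over the 13 arrays after the batch means were removed. The median Pearson r of a gene with the other 9 was 0.78 for Nqo1, 0.76 for Ugdh, 0.75 for Srxn1, 0.74 for Gclc, 0.74 for Aox1, 0.74 for Ephx1 and 0.62 for Txnrd1. It was 0.03 for Hmox1, -0.01 for Gclm and -0.25 for Osgin1. The highest pair was Nqo1 and Aox1 at 0.94 and the lowest Osgin1 and Ephx1 at -0.71. These values describe arrays that share groups and one normalization, and they carry no test.

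**Figure D5:**
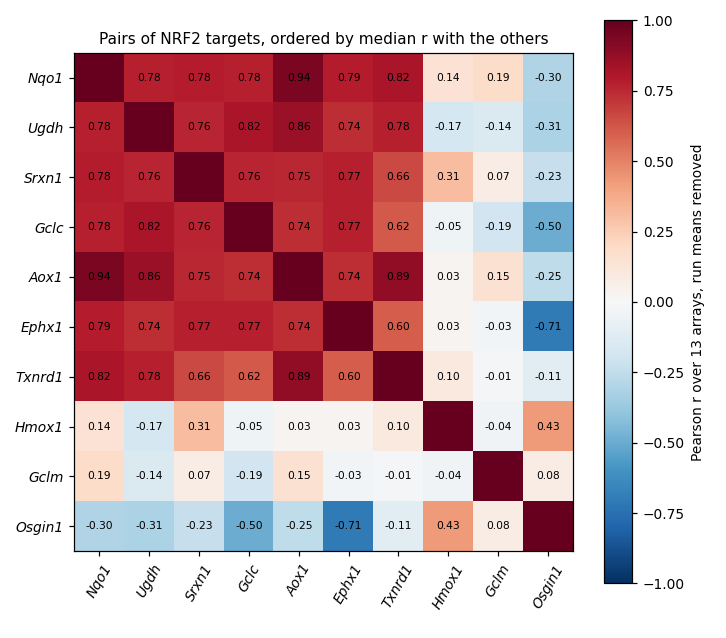
Pearson r between each pair of the 10 genes over 13 arrays after removal of the batch means, with genes ordered by their median r with the others. Nqo1, Ugdh, Srxn1, Gclc, Aox1, Ephx1 and Txnrd1 form a block with r of 0.60 to 0.94, and Hmox1, Gclm and Osgin1 lie outside it.

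Across all tested genes, the 5 most like Nqo1 over the same 13 arrays were Aox1 (r = 0.94), Zcchc7 (0.93), Entpd5 (0.92), Upb1 (0.92) and Mettl6 (0.92), and the 3 least like it were Commd1 (-0.91), Upk1a (-0.89) and Syne1 (-0.88). The gene most like each of the others was Dmxl2 for Gclc (0.93), Asxl2 for Gclm (0.94), Imp4 for Srxn1 (0.93), Bbs7 for Txnrd1 (0.90) and Prap1 for Osgin1 (0.92). It was Pole4 for Ugdh (0.93), Phlda3 for Ephx1 (0.96), Creg1 for Aox1 (0.95) and BC018473 for Hmox1 (0.87).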

How the data were processed

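Per the labels' protocols, liver RNA went through WT-Ovation Pico amplification before hybridisation to Affymetrix arrays of 1 colour. The authors deposited linear intensities, covering 35556 probe sets on each of 13 arrays and ranging from 0.000427 to 17831. The submitters' processing notes name Affymetrix Expression Console 1.1 and RMA, the second with no version. The genome build of the probes was not given in the sources used here. The median of an array lay between 76.9 and 82.99 for batch 1, and between 48.2 and 73.3 for batch 2.

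Quantile normalization was done in limma 3.58.1 (R 4.3.3). Levels are log2 after an offset of 16 was added, so changes of dim genes come out too small. Of the probe sets 21789 had 1 symbol, 1621 several and 12146 were unlisted in the annotation given, and those with 1 symbol gave 19938 genes. Genes below the 25th percentile of the mean level (5.94) were left out. A single limma model (lmFit, eBayes) held 5 groups and run batch, with 7 residual degrees of freedom, and was tested on simulated data. Batches follow the run that appears in each raw array name of the labels. P-values of the 10 comparisons were adjusted by Benjamini-Hochberg within each, over 14953 genes, and a call is an adjusted p under 0.05. All 10 genes are named in every comparison, with the genes most like each by Pearson r and the called members of the pathway lists. The genes, lists, rules and tests were chosen with earlier results of these data known. No array pair was identical (0 of 78), with correlations of 0.897 to 0.981 within groups and 0.87 to 0.972 between them.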

Additional observations from a re-analysis of the deposited data

Results flagged for a closer look

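In N750F DEN liver, array 3 stood apart from the other 4 arrays in the levels of 2 of the 10 genes. Srxn1 was at 9.84 on array 3, against 8.24 to 8.42 on the other 4, and its gap to the nearest array was 0.885 of the group's range. Txnrd1 was at 8.87 on array 3, against 7.40 to 7.81, with a gap of 0.724 of the range. Both gaps exceed Dixon's critical value of 0.71 for 5 samples. Only the N750F group was large enough for this test, it was tested for 10 genes, and chance gives about 1 such gap in 20. N750F array 3 was the highest of the 5 arrays for 7 of the 10 genes and the lowest for none. The share over all genes was not counted. These levels were not corrected for batch, and N750F arrays 4 and 5 were of batch 2.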

How the results depend on the processing

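Counts of the 10 genes called were recomputed under 15 other settings and with each of the 13 arrays left out. All 18 calls kept their direction in every setting run, but Ephx1 in N750F minus untreated liver was the only 1 called in all of them. Of 82 gene and comparison pairs not called, 26 changed sign in some setting and 11 were called in some setting. For WT DEN minus untreated (5 called), 1 was called without normalization, 3 with median scaling, 3 with an offset of 1, 2 without the batch term, 1 with the Y-linked covariate, and 0 on batch 1 arrays alone or on the 2 groups alone. For heterozygous minus untreated (5 called), 0 were called on batch 1 arrays alone and 3 on the groups compared alone. For N750F minus untreated (4 called), 1 was called without the batch term, 2 on batch 1 arrays alone and 1 on the groups compared alone. For knockout minus untreated (1 called), 3 were called with an offset of 50, 2 with a filter at the 50th percentile, and 0 without the batch term or on the groups compared alone. For N750F minus heterozygous (3 called), 0 were called on batch 1 or on batch 2 arrays alone, a setting added after seeing the data. For N750F minus WT DEN (0 called) 1 was called with an offset of 50, and for knockout minus heterozygous (0 called) 2 with that offset and 1 with the Y-linked covariate. Settings on fewer arrays have fewer samples, and for the other changes the cause was not tested.

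With 1 array left out, the counts ran from 1 to 5 for N750F minus untreated, 0 to 2 for knockout minus untreated, 3 to 5 for heterozygous minus untreated and 1 to 5 for WT DEN minus untreated. They ran from 0 to 5 for N750F minus heterozygous, 0 to 2 for knockout minus heterozygous and 0 to 1 for N750F minus knockout, and stayed at 0 for N750F, knockout and heterozygous minus WT DEN. Some of these fits leave a group with 1 array, which is then assumed to vary like the other groups.

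With the replicate number as a replicate block, 0 genes were called for WT DEN and 0 for heterozygous minus untreated, 1 for N750F minus untreated and 1 for N750F minus heterozygous. Whether the numbers paired the arrays could not be decided. Deviations of same-numbered arrays correlated at -0.303 to 0.111 and those of different numbers at -0.245 to 0.221. In every group but N750F, however, the deviations of the arrays from their group mean mirror each other. These correlations are thus partly fixed by the group sizes and do not test pairing.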
